A study of Mus musculus with 18 samples.

Results

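Translational efficiency was compared between hearts of mice lacking mORF4/NBDY and hearts of wild-type mice. For each heart and each gene it was the ratio of ribosome footprint signal to RNA signal, and the comparison covered the 9974 of 10597 listed genes whose mean signal over the 9 hearts was at least 10 in both assays. The hearts were left ventricles of untreated male C57BL/6 mice aged 20 weeks, 4 wild type (hearts 1 to 4) and 5 knockout (hearts 6 to 10). One poly-A RNA library and 1 footprint library came from each ventricle, 18 libraries in all. The labels do not say how the allele was disrupted, and a ventricle holds several cell types.

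NBDY, also called NoBody, is a microprotein that binds the decapping enhancer EDC4 and takes part in the turnover of P-bodies, the cytoplasmic granules where mRNA decapping and decay factors gather. Removal of the 5′ cap ends the translation of an mRNA and opens it to decay. Ribosome profiling sequences the short stretches of mRNA that ribosomes protect from nuclease, so that footprints per unit of RNA describe how heavily a gene's mRNA is occupied by ribosomes. Because RNA is the denominator, an mRNA that becomes scarcer at an unchanged number of footprints has a higher efficiency. For the genes described in most detail the RNA and footprint differences are therefore given beside the efficiency difference. All differences are knockout minus wild type on the log2(value + 1) scale, which understates changes of low genes.

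Depth, as reads on the listed genes, ranged from 6.67 to 36.7 M over the wild-type footprint libraries and from 22.9 to 40.8 M over those of the knockout hearts, where M is the prefix mega. The RNA libraries of the 4 wild-type hearts (11.2 to 12.4 M reads) were all shallower than those of the 5 knockout hearts (15.8 to 20.2 M reads). Whatever set that difference in RNA depth and the genotype cannot be told apart. Wild-type heart 2 had the shallowest footprint library and stood apart. The median absolute deviation of its log2 efficiency from the mean of the other wild-type hearts was 0.358, against at most 0.241 in each of the other 8 hearts. Within a genotype, the median SD of a gene was 0.294 for efficiency, 0.298 for footprints and 0.139 for RNA on the log2 scale, and 92.3% of genes had a larger SD in footprints than in RNA. Of the 623 genes under the minimum, 621 were under it in footprints and 17 in RNA. Zfp963 lay just inside, with a mean footprint signal of 10.02, and Gm527 just outside, with 9.99.

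Efficiency differed between the genotypes at 1556 genes (limma, Benjamini-Hochberg adjusted p below 0.05), 15.6% of those tested. It was higher in knockout at 744 genes (7.46%) and lower at 812 (8.14%), while the median difference over all genes was -0.02. The median absolute difference was 0.74 among the 1556 genes and 0.31 among all genes, and 326 genes differed by at least 1, with 149 higher and 177 lower. The 4 wild-type and 5 knockout hearts did not overlap in efficiency at 1824 genes (18.3%), and 1368 of the 1556 were among these. When each heart was left out in turn, between 998 genes (without wild-type heart 4) and 1368 genes (without wild-type heart 2) passed, and 804 genes passed in every one of the 9 fits. Stability was set more strictly as passing also without the pairing of the libraries and after quantile normalization, with no overlap between hearts, and 710 genes met it, 342 higher and 368 lower. Non-overlap of efficiency in a stable gene therefore follows from how it was chosen.

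Most of these differences lay in RNA. RNA differed at 4978 genes (49.9%), whereas footprints differed at 2 genes (0.0201%), Nbdy and Nppb. These counts come from tests of unlike precision, with a median within-genotype SD of 0.298 in footprints and 0.139 in RNA. At an unadjusted limma p below 0.05 there were 506 genes in footprints, or 5.07%, close to the 5% that this threshold gives where nothing differs. That share does not show that footprints were equal. In addition, edgeR's quasi-likelihood test on the whole footprint reads also called 2 genes after Benjamini-Hochberg adjustment. In limma the footprint count was 0 without wild-type heart 1, 2 or 3, 1 without knockout heart 6, 7, 8 or 9 and 3 without wild-type heart 4 or knockout heart 10. Among the 744 genes with higher efficiency the median RNA difference was -0.58 and the median footprint difference 0.16. Among the 812 with lower efficiency these medians were 0.57 and -0.16. RNA passed its own test in the opposite direction at 697 and 728 of these genes, and in the same direction at 1 gene, Nbdy. The footprint difference was under 0.2 in size at 422 of the genes with higher efficiency and at 464 of those with lower efficiency. It was larger than the RNA difference, and in the direction of the efficiency difference, at 180 of the 1556 genes (11.6%), against 36.6% of all genes tested. The footprint mean moved in the direction of efficiency at 606 of the 744 genes with higher and 645 of the 812 with lower efficiency. Both assays enter the ratio, so the opposite sign of RNA and the same sign of footprints are partly built into the measure.

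**Figure D1:**
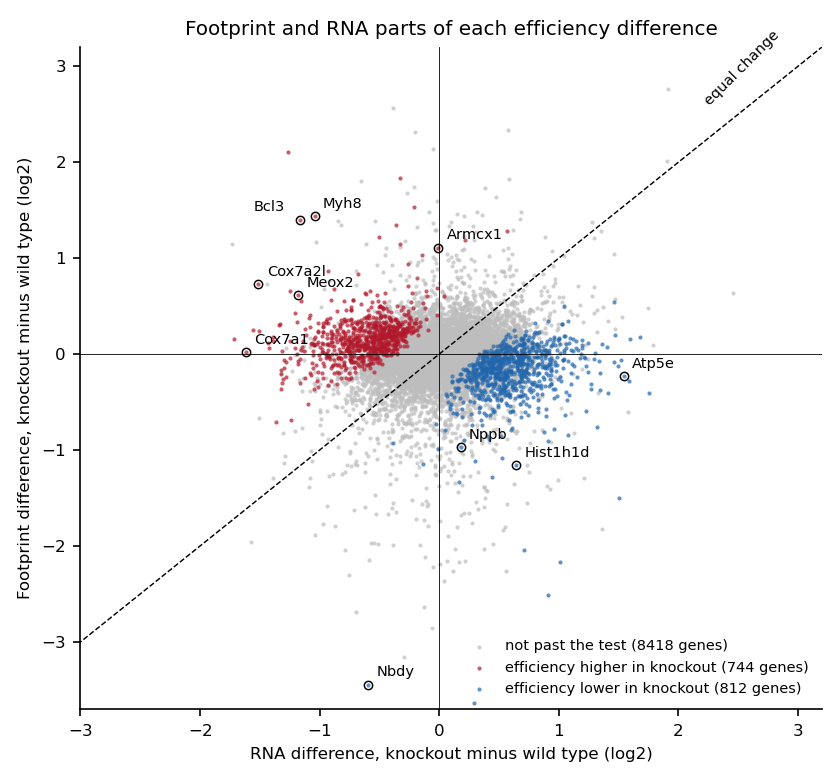
Footprint difference against RNA difference, knockout minus wild type in log2 units, for each gene tested; red and blue points are the 744 and 812 genes with higher and lower efficiency, circles mark named genes, and points on the dashed line have no efficiency difference. Red points spread to the left and blue points to the right at footprint differences mostly near 0, while Nbdy, Nppb and Armcx1 lie off this band (2 genes fall outside the axes).

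Nbdy, the targeted gene (chromosome X, 153723477 to 153741302, GRCm38), had the largest fall in efficiency among the stable genes. Its footprint signal was 107, 355, 151 and 119 in wild-type hearts 1 to 4 and 13.8, 16.3, 11.3, 10.9 and 19.04 in knockout hearts 6 to 10. Its RNA signal was 116, 114, 113 and 100 in wild type and 61.8, 75.5, 66.7, 73.7 and 90.0 in knockout, so the transcript was still present in every knockout heart. Neither assay overlapped between genotypes, and wild-type heart 2 had the highest footprint signal. Efficiency was 1.64 ± 0.996 (SD, n = 4) in wild type and 0.194 ± 0.0332 (SD, n = 5) in knockout. The log2 difference was -2.85 ± 0.32 (SE; limma adjusted p = 0.00201), and -2.49 without wild-type heart 2. Footprints fell by 3.45 (adjusted p = 0.0190) and RNA by 0.59 (adjusted p = 0.00247), both in limma.

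Nppb encodes B-type natriuretic peptide, a hormone released by cardiomyocytes under load (chromosome 4, 147985786 to 147987205). Its footprint signal was 16340, 14758, 12460 and 10791 in the wild-type hearts and 6660, 5620, 6367, 6678 and 9398 in the knockout hearts. Its RNA signal was 2048, 1758, 1466 and 1287 in wild type and 1870, 1631, 1480, 1599 and 2812 in knockout. Footprints did not overlap between genotypes, while RNA did. Efficiency was 7.98, 8.40, 8.50 and 8.39 in wild type and 3.56, 3.45, 4.30, 4.18 and 3.34 in knockout, a log2 difference of -1.15 ± 0.11 (SE; limma adjusted p = 0.00131). The RNA difference was 0.18 (limma adjusted p = 0.436) and the footprint difference -0.97 (adjusted p = 0.0288). Over the fits that left out 1 heart the efficiency adjusted p reached at most 0.00645. Of the 7 natriuretic peptide genes, processing enzymes and receptors, Nppb and Npr1 fell (median difference of the list -0.44). Npr1, the receptor for both cardiac peptides, was named after its values were seen. Its difference was -0.49 (limma adjusted p = 0.0497), and the count of the list was 1 in fits without any of wild-type hearts 1 to 3 or knockout hearts 7 to 10. Nppa, which encodes the atrial peptide, had an efficiency difference of -0.44 (limma adjusted p = 0.167), with -0.79 in RNA and -1.23 in footprints.

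**Figure D2:**
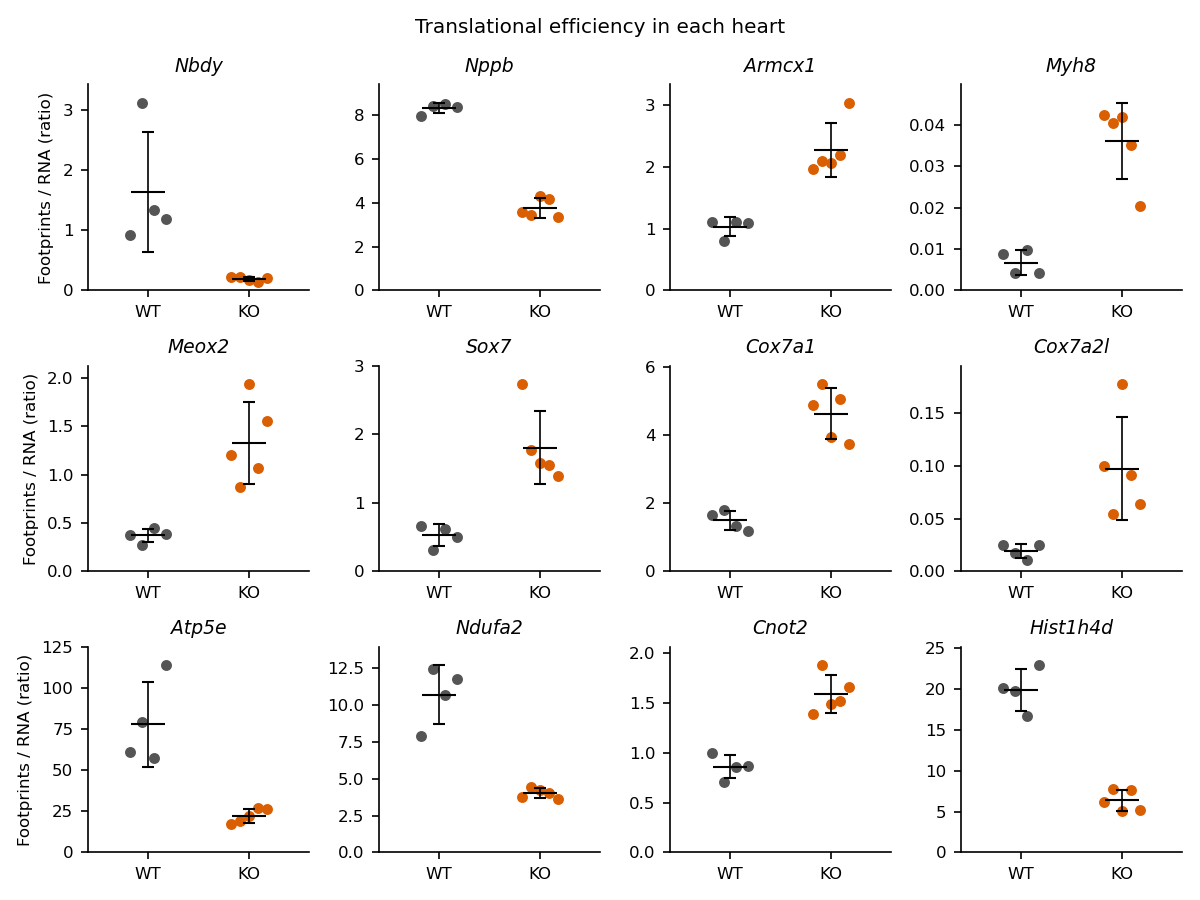
Translational efficiency (footprint signal over RNA signal) of 12 genes in each heart; grey points are the 4 wild-type (WT) and orange points the 5 knockout (KO) hearts in order of their number, with the mean and SD in black. In each panel the genotypes do not overlap, which was a condition for calling a gene stable. For Nbdy, wild-type heart 2 reached 3.12, against 0.929, 1.34 and 1.19 in wild-type hearts 1, 3 and 4.

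The 10 largest stable rises included 3 genes of endothelial cells, 2 myosin heavy chains and an assembly factor of the respiratory chain. Meox2, a homeobox transcription factor of heart endothelium, had an efficiency of 0.377, 0.273, 0.446 and 0.391 in wild type and 1.20, 0.872, 1.94, 1.07 and 1.55 in knockout. The log2 difference was 1.80 ± 0.25 (SE; limma adjusted p = 0.00250), made of an RNA difference of -1.18 and a footprint difference of 0.61. Sox7, a transcription factor of endothelial development, rose by 1.79 ± 0.26 (SE), with -0.93 in RNA and 0.86 in footprints. Myct1, a membrane protein of endothelial cells, rose by 1.90 ± 0.33 (SE), with -1.25 in RNA and 0.65 in footprints. Thus, in these 3 genes, the mean of RNA was lower and that of footprints higher. Their footprint signals overlapped between genotypes, and footprints alone had a limma adjusted p of 0.851 in each.

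Bcl3, a nuclear cofactor of NF-kappaB, had the largest stable rise, 2.57 ± 0.58 (SE; limma adjusted p = 0.0148). Few footprints fell on it, with a signal from 3.11 to 44.9 in wild type and from 19.04 to 77.3 in knockout, and these ranges overlapped. Myh8, a perinatal myosin heavy chain, had an efficiency of 0.00884, 0.00414, 0.00976 and 0.00425 in wild type and 0.0424, 0.0405, 0.0420, 0.0351 and 0.0204 in knockout. The log2 difference was 2.48 ± 0.53 (SE; limma adjusted p = 0.0129). Myosin heavy chain genes share sequence, and the sources used here do not say how reads that match several of them were counted, so Myh8 and Myh7b (1.71) are uncertain. Cox7a2l, a factor of respiratory supercomplex assembly, had an RNA signal of 8334 to 9697 in wild type and 3051 to 3368 in knockout. Its footprint signals, from 93.4 to 227 and from 165 to 540, overlapped, and its efficiency rose by 2.24 ± 0.47 (SE; limma adjusted p = 0.0115). Hrct1, Hcfc1r1 and BC024978 rose by 1.87, 1.75 and 1.64. Their RNA differences were -1.71, -1.51 and -1.33 and their footprint differences 0.15, 0.24 and 0.31. Hcfc1r1 has 2 named pseudogene copies. The RNA kit did not mark strand, so reads from overlapping genes cannot be told apart. Bcl3, Myh7b, Hcfc1r1 and BC024978 each overlap another annotated gene.

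After Nbdy, the 9 largest stable falls were led by 0610012G03Rik (-2.16 ± 0.29 SE) and Pigyl (-2.08 ± 0.35 SE), whose RNA differences were 1.76 and 1.32. Their mean RNA signals in wild type were low, at 39.1 and 35.8. Atp5e encodes the epsilon subunit of ATP synthase. Its RNA signal was 468, 401, 471 and 319 in wild type and 1269.7, 1143, 1268, 1171 and 1135 in knockout, with no overlap. The footprint signal of Atp5e was 27066 to 36304 in wild type and 21654 to 31570 in knockout, with overlap. Efficiency accordingly went from 77.8 ± 25.8 (SD, n = 4) to 22.3 ± 4.29 (SD, n = 5), a log2 difference of -1.77 ± 0.26 (SE; limma adjusted p = 0.00281). Ckmt1, the ubiquitous mitochondrial creatine kinase, fell by 1.82, with an RNA difference of 1.23 and a footprint difference of -0.59. Acot5, a peroxisomal acyl-CoA thioesterase, fell by 1.87, Fbxl15, an F-box protein, by 1.82, and Mal, a membrane proteolipid, by 1.72. The mean wild-type RNA signals of Acot5, Fbxl15 and Mal were 42.2, 16.6 and 25.3, so few RNA reads enter their wild-type ratios. Ifi27l2a, an interferon-induced gene, fell by 1.69, with 1.05 in RNA and -0.64 in footprints. Ckmt1, Fbxl15 and Ifi27l2a overlap other annotated genes.

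At 40 of the 710 stable genes, 10 higher and 30 lower, the footprint difference was the larger part. Armcx1, a mitochondrial outer membrane protein of the armadillo repeat family (chromosome X, 134717913 to 134721917), had the rise with the smallest RNA part among those named. Footprint signals were 74.6, 72.5, 60.7 and 68.2 in wild type and 169, 142, 136, 147 and 156 in knockout. Its RNA signal was 66.8, 89.7, 54.4 and 62.2 in wild type and 86.0, 67.8, 65.9, 67.1 and 51.3 in knockout. Footprints did not overlap and RNA did. The efficiency difference was 1.12 ± 0.16 (SE; limma adjusted p = 0.00267), with -0.01 in RNA and 1.11 in footprints, although its footprints alone had a limma adjusted p of 0.851. Ticam1, the adaptor of Toll-like receptor 3, rose by 1.26, with -0.62 in RNA and 0.63 in footprints. Zfp36, which binds AU-rich elements and brings deadenylases to mRNAs, rose by 0.97, with RNA and footprint differences of -0.48 and 0.49. Ammecr1l (0.99), Tpmt (1.09), a thiopurine methyltransferase, and Ezr (0.64), which links membrane to actin, were named by the same rule, as were Bcl3 and Myh8 above. Tpmt did not pass when the variance trend followed the mean level (limma adjusted p = 0.0687).

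The corresponding falls, after Nbdy and Nppb, were led by the linker histone Hist1h1d. Its footprint signal was 179, 235, 282 and 204 in wild type and 132, 54.8, 116, 63.2 and 176 in knockout, just short of overlap. Its efficiency difference was -1.81 ± 0.35 (SE; limma adjusted p = 0.00816), with 0.65 in RNA and -1.16 in footprints. Nipa1, a magnesium transporter, fell by 1.39, Mfhas1 by 1.37, Dbndd2 by 1.27, Pigv, a mannosyltransferase of GPI anchor synthesis, by 1.25, and Dexi by 1.19. In these 5 genes footprint differences ran from -0.86 to -0.61 and RNA differences from 0.40 to 0.60.

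**Figure D3:**
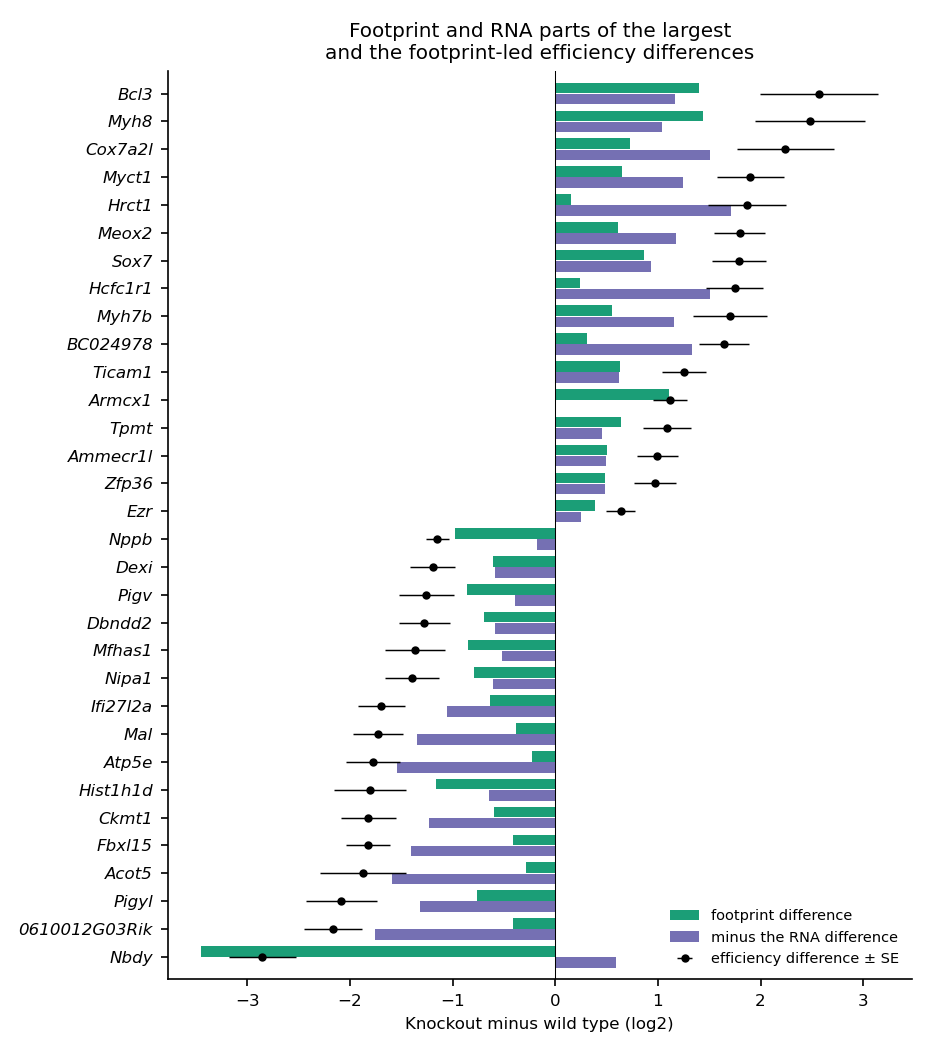
Footprint difference (green bars) and RNA difference with its sign turned (purple bars) for the genes with the largest stable efficiency differences and those led by footprints; black points are the efficiency difference with its SE, all in log2 units, knockout minus wild type. The bars of each gene add up to about its point; Nbdy is the gene whose bars point in opposite directions, and Armcx1 has almost no RNA bar.

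RNA did not pass its own test at 130 of the 1556 genes, 47 higher and 83 lower, and 10 of these 130 were stable. Besides Nppb and Armcx1 they were Phlda1 (1.56), Zfp207 (0.56), Tstd3 (-0.93), Ostm1 (-0.79), Zfp952 (-0.76), H2-D1 (-0.63), Sgcd (-0.58) and Ndufb2 (-0.51), which were named after their values were seen. Sgcd, delta-sarcoglycan of the dystrophin complex, had an efficiency of 7.75 ± 0.924 (SD, n = 4) in wild type and 5.17 ± 0.448 (SD, n = 5) in knockout. Its RNA and footprint differences were 0.24 and -0.34. A p that misses the threshold in RNA does not show that RNA was equal. Phlda1 had an RNA difference of -0.88 at a limma adjusted p of 0.0549, and Tstd3 and Ndufb2 had adjusted p of 0.0511 and 0.0527.

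Genes were next grouped by function, and each group's counts are to be read against 7.46% higher and 8.14% lower over all genes tested. These shares also vary with gene span and RNA abundance, described last. Lower genes make up 15.8% of the shortest bin of genes. Higher genes make up 10.3% of the longest bin and 14.4% of the bin with the most abundant RNA. Of 18 tested decapping and P-body proteins, the group in which NBDY acts, 1 rose (5.56%), Pnrc1 (0.72; limma adjusted p = 0.0127; named after its values were seen), and the count was 2 without wild-type heart 4 or knockout heart 6 and 0 in limma without the replicate block. The list's median difference was 0.13 in efficiency and -0.27 in RNA. Its summed RNA was 10260 to 11264 in wild type and 8740 to 9639 in knockout, without overlap. The normalized RNA signal of the whole library was lower in knockout too. No knockout heart had a total above 14.7 M, and no wild-type heart had one under 15.53 M. The part of that lower total in the fall of the list's sum was not tested. Ddx6, the helicase that activates decapping, had an efficiency of 2.09 ± 0.355 (SD, n = 4) in wild type and 1.96 ± 0.144 (SD, n = 5) in knockout (limma adjusted p = 0.716). Lsm14b, its P-body partner, had a difference of 0.31 (adjusted p = 0.199). Among deadenylases, 5 of 19 CCR4-NOT and PAN genes rose (26.3%) and 1 fell, with a median of 0.30. Cnot2, a scaffold subunit, had an efficiency of 0.999, 0.711, 0.861 and 0.869 in wild type and 1.39, 1.88, 1.48, 1.52 and 1.66 in knockout. Its difference was 0.89 ± 0.15 (SE; limma adjusted p = 0.00436). Cnot3 (0.97) and the ubiquitin ligase Cnot4 (1.21) rose too, all 3 with RNA differences between -1.05 and -0.70. Of 17 genes of nonsense-mediated decay and the exon junction complex 3 rose (17.6%), led by Upf3b (1.33). That count was 1 without wild-type heart 4 and 5 without wild-type heart 2.

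Genes of the translation machinery were counted by class. Of 68 cytosolic ribosomal protein genes tested 1 changed, Rps14, which fell by 1.33 with an RNA difference of 1.40, and the count was 2 without wild-type heart 2 or without the replicate block. The median of these 68 was -0.20. Ribosomal protein genes have many processed pseudogenes, and the sources used here do not say how shared reads were counted. Of 55 initiation factors 9 rose (16.4%) and 1 fell, and without wild-type heart 4 the count of changed members was 6. Eif3a, a scaffold subunit of eIF3, rose by 0.74 with an RNA difference of -0.66. Eif4e2, a cap-binding homologue of eIF4E, rose by 0.70 and Eif2a by 0.62, while Eif4ebp1, the inhibitor that sequesters eIF4E, fell by 0.70. Abce1, which recycles ribosomes, rose by 0.68 and was the member of 12 elongation and release factors to pass. A count of 2 was reached without knockout heart 8. Of 20 aminoacyl-tRNA synthetases 2 rose and 1 fell, and 1 passed without any of the 5 knockout hearts or wild-type hearts 3 and 4. Sars, the seryl-tRNA synthetase, rose by 0.72. Of 75 mitochondrial ribosomal proteins 14 fell (18.7%), 4 rose (5.33%) and 57 did not pass, and 41 of the 75 were in the shortest bin of gene span. Mrpl52 fell by 1.17 and Mrpl36 by 0.85, while Mrps23 rose by 0.83 and Mrps25 by 0.65.

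Transcripts known for translational control came next. Of 13 genes with regulatory upstream reading frames 1 rose and 1 fell. Eif5, whose own upstream frames respond to start codon stringency, rose by 0.82 (limma adjusted p = 0.0281), and its adjusted p was 0.0517 to 0.0742 without knockout hearts 7, 9 or 10 or wild-type hearts 3 or 4. The count was 1 without knockout hearts 7, 9 or 10 or wild-type heart 4. The range over all left-out hearts was 0 to 2, with the lowest count reached without wild-type heart 3. No gene passed limma's test among 13 iron and polyamine transcripts, and 1 did without wild-type heart 1. Fth1, ferritin heavy chain under an iron-responsive element, had an efficiency difference of 0.52 (limma adjusted p = 0.142). Of 17 selenoprotein genes, whose synthesis recodes a stop codon, 4 fell (23.5%), Selenof by 0.99. The count was 1 without wild-type heart 3 or 4 and 2 without knockout heart 9 or 10.

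Of 85 nuclear-encoded genes of the respiratory complexes and ATP synthase 29 fell (34.1%) and 9 rose (10.6%). These are short genes, with 51 of the 85 in the shortest bin of gene span, and the part of span in these counts was not tested. Of 37 complex I subunits 14 fell (37.8%) and 4 rose (10.8%), and 13 of the falls and 3 of the rises passed in all fits that left out 1 heart. Ndufa2, an accessory subunit, had an efficiency of 7.91, 12.4, 10.6 and 11.8 in wild type and 3.76, 4.42, 4.20, 4.04 and 3.64 in knockout. The log2 difference was -1.39 ± 0.14 (SE; limma adjusted p = 0.00131), with 1.15 in RNA and -0.24 in footprints. Ndufa11 fell by 1.10, Ndufs7, which carries an iron-sulfur cluster, by 0.81 and Ndufb8 by 0.80. In complex II, Sdhc and Sdhd, the membrane anchors, fell by 0.60 and 0.58 among 4 subunits. Of 10 complex III subunits 3 fell and 2 rose, among them Uqcrfs1, the Rieske protein (-0.73), Uqcr10 (-0.82) and Uqcrb (1.15), and 3 passed without wild-type heart 1 or 4.

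In complex IV, counted with the supercomplex factor, 4 of 15 genes fell (26.7%) and 3 rose (20.0%). Cox7a1, the heart and muscle isoform of a small subunit, had an RNA signal of 23199 to 36917 in wild type and 8919 to 11532 in knockout. Its footprint signals, 38491 to 56112 and 37181 to 50156, overlapped. Its efficiency went from 1.66, 1.80, 1.34 and 1.20 in wild type to 4.89, 5.51, 3.96, 5.07 and 3.74 in knockout. That log2 difference was 1.63 ± 0.16 (SE; limma adjusted p = 0.00131), while Cox6c and Cox5a fell by 0.76 and 0.66. Of 19 ATP synthase genes 6 fell (31.6%), and these 6 fell in every fit that left out 1 heart. Beside Atp5e they included Atp5mpl (-0.93), Atp5j2 (-0.88) and Atp5j (-0.77). RNA differences of those 3 lay between 0.51 and 0.82 and footprint differences between -0.37 and -0.10. Thus small subunits of the same complex changed in opposite directions, with RNA as the larger part in each gene named in these complexes except Ndufb2.

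Genes of fuel metabolism that passed went both ways, as did all genes tested (7.46% higher and 8.14% lower). Of 32 genes of fatty acid oxidation 5 fell (15.6%) and 3 rose (9.38%). Acads, the short-chain acyl-CoA dehydrogenase, fell by 0.78 and Echs1 by 0.53, while Fabp3, the fatty acid carrier of heart, rose by 1.15 and Acot13 by 0.60. Fabp3 has a named pseudogene copy. Of 27 genes of glycolysis and pyruvate oxidation 4 fell (14.8%) and 3 rose (11.1%), and without wild-type heart 4 the count was 4. Slc2a4, the insulin-sensitive glucose transporter, fell by 0.74, and the pyruvate dehydrogenase kinase Pdk2 and lipoamide dehydrogenase Dld rose by 0.97 each, with Ldhb at 0.70. In the citric acid cycle 3 of 19 genes rose (15.8%) and 2 fell (10.5%), with Idh3g at 0.79, and 8 genes passed under quantile normalization. Among 8 creatine and adenylate kinases, Ak1 (0.93) and the sarcomeric mitochondrial creatine kinase Ckmt2 (0.63) rose, whereas Ckmt1 fell. Median differences of the glycolytic and citric acid cycle lists were 0.03 and 0.03, and turned to -0.08 and -0.11 under quantile normalization.

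**Figure D4:**
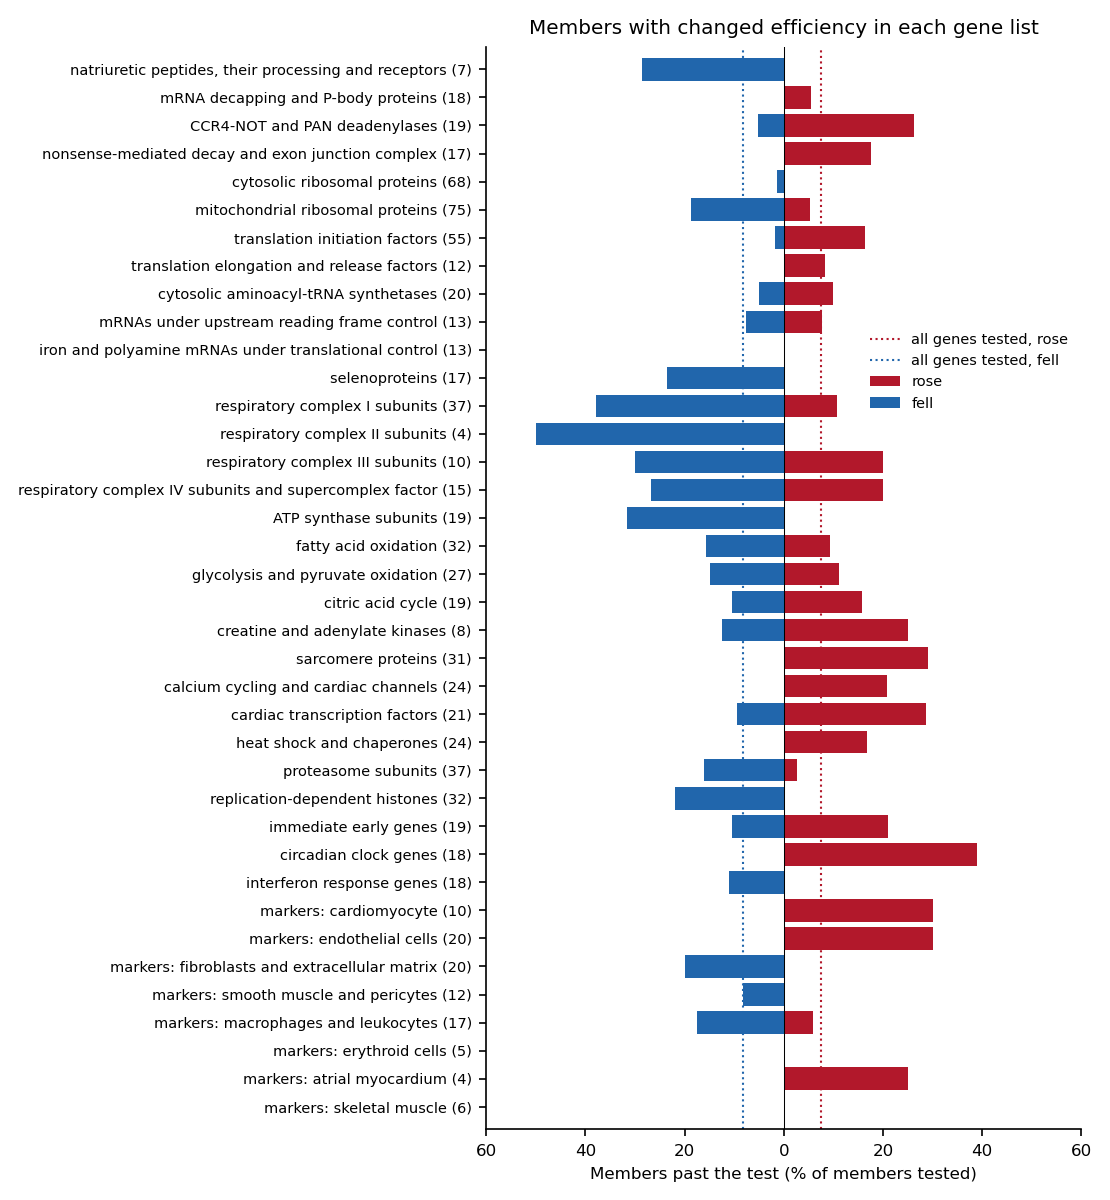
Share of each list's tested members (number in parentheses) whose efficiency rose (red, to the right) or fell (blue, to the left) in knockout, in percent, for lists with at least 4 tested members; dotted lines are the shares over all genes tested, 7.46% and 8.14%. The longest bars to the left are those of respiratory complex II (2 of 4 genes), complex I and ATP synthase. The longest to the right are circadian clock genes (38.9%) and cardiomyocyte and endothelial markers (30.0% each).

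Contractile and electrical genes rose where they changed. Of 31 sarcomere proteins 9 rose (29.0%), with a median of 0.33 that was 0.03 under quantile normalization. The count was 4 under quantile normalization, 3 without wild-type heart 4, 4 without knockout heart 6 and 5 without wild-type heart 3 or knockout heart 7, 9 or 10. Of 24 genes of calcium cycling and ion channels 5 rose (20.8%), and 3 passed under quantile normalization or without wild-type heart 3 or 4 or knockout heart 6 or 9. Cacnb2, a subunit of the L-type calcium channel, had an efficiency of 0.753 ± 0.076 (SD, n = 4) in wild type and 1.52 ± 0.132 (SD, n = 5) in knockout, a log2 difference of 1.01 ± 0.13 (SE; limma adjusted p = 0.00226). Gja1, connexin 43, rose by 0.48. Of 21 cardiac transcription factors 6 rose (28.6%) and 2 fell. Mef2d rose by 1.05, Mef2a by 0.53 and Ppargc1a, the coactivator of mitochondrial biogenesis, by 0.80, while Nkx2-5 fell by 0.67. That count was 4 without wild-type heart 1, 3 or 4 or knockout heart 8, and 5 without knockout heart 7 or 9. Median gene span was 72799 bases for the cardiac transcription factors and 54406 bases for the calcium cycling and channel genes. The part of span in these counts was not tested.

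Replication-dependent histones had the lowest median of the lists with more than 10 tested members, -0.80. Their mRNAs end in a stem-loop and carry no poly-A tail, and a poly-A library captures such mRNAs poorly. Of 60 listed genes 32 passed the minimum, and the 28 others were under it in footprints. Of the 32, of which 30 were in the shortest bin of gene span, 7 fell (21.9%), with a median RNA difference of 0.54 and a median footprint difference of -0.18. Hist1h4d had an RNA signal of 19.5, 31.2, 30.4 and 24.4 in wild type and 69.4, 48.2, 72.0, 61.3 and 71.1 in knockout, with no overlap. Footprint signals of Hist1h4d were 392, 618, 508 and 558 in wild type and 427, 375, 362, 469 and 369 in knockout, with overlap. The efficiency difference was -1.63 ± 0.17 (SE; limma adjusted p = 0.00131). Hist1h1e fell by 1.43 and Hist1h4c by 1.25. Histone genes are near-identical copies of each other, so that values of single members are uncertain.

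Of 19 immediate early genes 4 rose and 2 fell, and 3 passed without the replicate block. Jun had an efficiency of 0.801, 0.548, 0.956 and 0.776 in wild type and 2.02, 1.81, 1.83, 1.73 and 1.57 in knockout, a difference of 1.24 ± 0.17 (SE; limma adjusted p = 0.00243). Its partner Jund went the other way, from 1.34, 2.17, 1.77 and 1.72 to 0.647, 1.14, 0.759, 0.927 and 0.779, a difference of -1.05 ± 0.20 (SE; limma adjusted p = 0.00739). RNA differences were -0.78 for Jun and 0.97 for Jund. Of 18 circadian clock genes 7 rose (38.9%), with a median of 0.36. In limma without the replicate block none passed after adjustment, and the count was 2 without wild-type heart 1 or 4 or knockout heart 8, 3 without wild-type heart 2 or 3 or knockout heart 7 and 4 without knockout heart 9 or 10. Bhlhe40, a clock repressor, rose by 0.56 (limma adjusted p = 0.0425), against 0.336 without the block, and Nr1d1 had a difference of 0.54 (adjusted p = 0.0680). Summed RNA signal of the clock genes ranged from 10525 to 15998 in wild type and from 7050 to 15394 in knockout, and the labels give no hour of harvest.

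Of 24 heat shock proteins and chaperones 4 rose (16.7%), and 2 passed under quantile normalization or without wild-type heart 3 or 4 or knockout heart 6, 8 or 9. Bag3, a cochaperone of selective autophagy in muscle, rose by 0.94. Of 37 proteasome subunits 6 fell (16.2%) and 1 rose, and 4 passed without wild-type heart 4. Psmb3 fell by 0.75, Psmb4 by 0.74 and Psma7 by 0.65. Of 18 interferon response genes 2 fell, Ifi27l2a and Bst2 (-0.97), an inhibitor of virus release, and 4 passed without wild-type heart 2. Genes encoded in mitochondrial DNA are not analysed here.

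Markers of the cell types of the heart were examined in the same way. In bulk tissue, fewer cells of a type and less RNA per cell cannot be told apart. Of 10 cardiomyocyte markers 3 rose, including the oxygen carrier Mb (0.43), and 1 passed under quantile normalization or without wild-type heart 4 or knockout heart 6, 8 or 10. Summed cardiomyocyte RNA was 2074672 to 2372344 in wild type and 1776181 to 2023162 in knockout, without overlap, while summed footprints overlapped, at 3006320 to 3192338 and 3111227 to 3517696. Of 20 endothelial markers 6 rose (30.0%), and 4 of these did so in every fit that left out 1 heart. Beside Meox2, Sox7 and Myct1 there was Ly6c1, a surface antigen of heart capillaries, which rose by 1.19 with an RNA difference of -1.28. Summed endothelial RNA was 34956 to 39573 in wild type and 29562 to 32802 in knockout, without overlap. Summed endothelial footprints overlapped, at 54500 to 64167 and 53693 to 62083. The normalized RNA total of every knockout library (14.7 M or less) was also under that of every wild-type library (15.53 M or more). The part of this lower total in the cardiomyocyte and endothelial RNA sums was not tested.

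Of 20 fibroblast and matrix markers 4 fell (20.0%), with elastin, Eln, at -1.34 and summed RNA of 37061 to 50628 in wild type and 47320 to 60026 in knockout. Without the replicate block 1 of these passed. Of 12 smooth muscle markers Tagln fell (-0.63), and 2 passed under quantile normalization. Of 17 macrophage and leukocyte markers 3 fell and 1, the lysosomal protein Cd68 (1.04), rose, while 2 passed without the replicate block. The 4 atrial markers had a summed RNA of 15156 to 16801 in wild type and 5334 to 8970 in knockout, without overlap. Most of this sum came from Myl4, named after its values were seen, with an RNA signal of 11096 ± 2269 (SD, n = 4) in wild type and 3741 ± 613 (SD, n = 5) in knockout, whereas the mean of Myl7 went the other way, from 135 to 343 (limma adjusted p for RNA = 0.205). The list's median RNA difference was -0.24. Myl4 was the 1 atrial marker that passed in efficiency, and none did without knockout hearts 6, 7, 9 or 10 or wild-type heart 2 or 3, or under quantile normalization, by limma. Myl7, the atrial light chain, varied within genotype, with an efficiency of 33.1 ± 37.8 (SD, n = 4) in wild type and 11.2 ± 7.76 (SD, n = 5) in knockout. The part that cardiomyocyte, atrial or endothelial RNA had in the efficiency differences was not tested. No member of the lymphocyte (2), erythroid (5), skeletal muscle (6) or adipocyte (2) lists passed limma's test after adjustment. Leaving out wild-type heart 1 gave 1 erythroid gene, and leaving out knockout heart 8 gave 1 skeletal muscle gene, as did quantile normalization and the fit without the replicate block.

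Genes with higher and lower efficiency differed in the length of the genome that they span, from RefSeq's GRCm38.p6 annotation (9951 genes, 99.8%). The median span was 31960 bases for genes with higher efficiency, 11461 bases for those with lower efficiency and 24584 bases for those that did not pass. When genes were put into 5 bins of equal size by span, the share with lower efficiency was 15.8% in the shortest bin (median span 4404 bases) and then 10.1%, 7.44%, 4.82% and 2.61%. The share with higher efficiency was 4.77% in the shortest bin and then 6.53%, 7.29%, 8.49% and 10.3%. Median RNA differences went from 0.18 in the shortest bin to -0.11 in the longest, and median footprint differences from -0.03 to 0.03. Spearman's correlation across genes, which are not independent replicates, was 0.24 between span and efficiency difference, -0.24 with the RNA difference and 0.07 with the footprint difference. Span includes introns and is not the length of the mRNA.

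**Figure D5:**
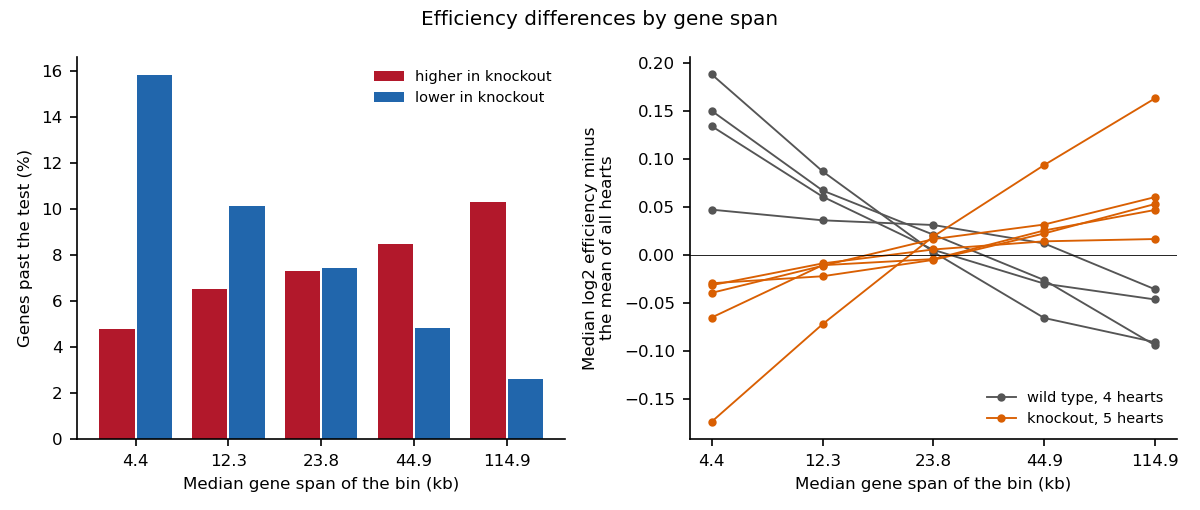
Left, percentage of genes with higher (red) and lower (blue) efficiency in knockout in 5 bins of gene span, labelled by their median span in kilobases; right, median log2 efficiency of each bin minus the mean over all hearts, 1 line per heart. The share of lower genes goes from 15.8% to 2.61% and that of higher genes from 4.77% to 10.3%. The 4 wild-type lines (grey) slope downward and the 5 knockout lines (orange) upward. Because values are centred on all hearts, a slope in 1 genotype is mirrored on average in the other. Knockout lines range from heart 7 (-0.0317 to 0.0164) to heart 10 (-0.174 to 0.163).

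The shares also followed RNA abundance, as the mean RNA signal over all hearts. In 5 bins of equal size the share of genes with higher efficiency was 1.55% in the least abundant bin and then 3.51%, 6.92%, 10.9% and 14.4%. The share with lower efficiency went from 10.2% through 8.82%, 8.22% and 7.52% to 5.91%. RNA depth differed between the genotypes, and its part in these shares was not tested.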

How the data were processed

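TRIzol was used to extract RNA, a TruSeq kit to make the RNA libraries and a NEXTflex small RNA kit to make those of footprints, per the labels' protocols. The tools STAR 2.7.1a, HTSeq and DESeq2 and the build GRCm38 (mm10) are named, without their roles, per the submitters' processing notes. The authors deposited a normalized signal per gene and library for RNA and for footprints, that is, counts divided by a size factor per library. Dividing by the smallest step of a library gave whole footprint reads (tolerance 0.01), and read totals of both assays come from this step. The authors' deposited efficiency table was not used.

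Efficiency was log2((footprints + 1)/(RNA + 1)) within each heart, which pairs the libraries of 1 ventricle as the labels do. It was tested with limma 3.58.1 (R 4.3.3) with a variance trend and Benjamini-Hochberg adjustment over all 9974 genes at 0.05, and RNA and footprints likewise. The script was tested on simulated data. Genes were named by rule: Nbdy, Nppb, the 10 largest stable rises and falls, up to 8 stable genes led by footprints in each direction and up to 4 stable genes per list, or the highest members where none was stable. Members and lists were chosen with earlier results of these data known. Symbols were found for 10560 genes. Hearts are separate animals, and p-values measure the spread between them. Alternatives were the pseudocount, minimum, TMM (edgeR 4.0.16), quantile normalization, array weights, threshold, no pairing and leaving out each heart. A variance trend on mean level and edgeR on whole footprint reads were added after seeing the data.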

Additional observations from a re-analysis of the deposited data

Results flagged for a closer look

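In groups of 4 or 5 hearts, a heart was singled out where its gap to the nearest other heart, divided by the range of the group, was above Dixon's 95% critical value. This was done on log2 efficiency for 226 groups of named genes, and chance alone singles out about 1 in 20 groups. There were 17 flags in all, including the flag on read numbers given last. Wild-type heart 2, which had the shallowest footprint library, stood apart for Armcx1 (ratio 0.942), Cox6c (0.944), Ak1 (0.889), Hba-a2 (0.845), Tagln (0.834), Nipa1 (0.832) and Psmb4 (0.830). Its efficiency was 0.808 against at most 1.12 in the other wild-type hearts for Armcx1 and 12.0 against 5.22 to 6.02 for Nipa1. Of the other wild-type hearts, heart 3 stood apart for Mrps25 (0.876) and heart 4 for the immunoglobulin gene Igkc (0.8295), where its efficiency was 12.6 against 2.22 to 2.98.

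Among knockout hearts, heart 10 stood apart for Myh8 (0.739), as the lowest, and for Armcx1 (0.749), as the highest at 3.04 against 1.97 to 2.19. Heart 8 was the lowest for Nipa1 (0.719) and Cnot4 (0.717), heart 7 for Eif3a (0.779) and heart 6 for Ammecr1l (0.788). Heart 9 was the highest for Fabp3 (0.738). Of the knockout footprint libraries, the deepest stood apart in its number of reads (0.785).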

How the results depend on the processing

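The count of 1556 genes with changed efficiency was 1425 to 1963 under other pseudocounts, minimums, scalings and variance models, and 1355 with a difference of at least 0.5. At an adjusted p below 0.1 it was 2372, with 1153 higher and 1219 lower. Leaving out each heart gave 998 to 1368 genes, 456 to 651 higher and 542 to 717 lower; the lowest counts came without wild-type heart 4, with fewer samples in each such fit. Lower genes were the majority in the main fit, at 812 against 744. Without the replicate block 1434 genes passed, 781 higher and 653 lower. With a variance trend on the mean level, and the pairing kept, 1852 passed, 989 higher and 863 lower. RNA counts stayed between 4552 and 5235. Footprint counts were 0 to 3 over the left-out hearts and 0 with no minimum; the cause of the latter was not tested. Of the 113 named genes 97 passed the main test and could lose significance. By definition the 95 stable genes had passed every left-out fit, the fit without the block and quantile normalization. Those genes could not lose significance there. Of 2026 values of the 113 genes under these settings, 15 lost significance and none turned direction. The genes that lost it when a heart was left out were Eif5 and Bhlhe40, in several such fits. Npr1, which is not among the 113, also lost it in fits without 1 heart, where its adjusted p reached 0.0969. Footprints, whose spread between hearts was larger than that of RNA, limit the precision of efficiency.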
